A study of Mus musculus with 6 samples.

Results

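The core circadian clock genes are 10 genes whose products form the feedback loops of the daily clock: Arntl (also called Bmal1), Clock, Per1, Per2, Per3, Cry1, Cry2, Nr1d1, Nr1d2 and Dbp. They were picked by symbol from a fixed list of names, drawn up with earlier results of these data known, and all 10 were found among the 19943 genes listed in at least 1 library. All 10 also passed the filter on low counts, which left 15169 genes. The tissue sequenced was medial prefrontal cortex, part of the frontal lobe, from C57BL/6 mice aged 6 weeks by the sample labels, whereas the text on the design gives 7 weeks. The 3 control libraries (control 1 to 3) carry the treatment label control, with no account of how those mice were housed, and the 3 isolated libraries (isolated 1 to 3) came from mice kept in social isolation for 3 weeks after weaning. The labels do not say whether a library is 1 animal or a pool, so the p-values measure only the spread between these libraries, which may be technical. The sources used here do not give the hour at which the tissue was taken.

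In the clock loop the proteins of Arntl and Clock pair up and switch on genes that carry E-boxes, among them the Per, Cry and Nr1d genes and Dbp. The PER and CRY proteins then restrain that pair, and the nuclear receptors of Nr1d1 and Nr1d2 repress Arntl through sites called ROREs, which the ROR receptors activate. DBP acts in turn on D-boxes, found in Per genes among others. In most tissues, cortex included, transcripts of Arntl peak at nearly the opposite time of day from those of Nr1d1 and Dbp. Arntl and Clock are called the activator arm below, and the other 8 genes the repressor and output arm.

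Promoter stretches are shown for genes in which the letters of these elements were found, since the comparison of the arms rests on this wiring. Sequences are from RefSeq on the assembly GRCm38.p6, in windows from 250 bases before to 50 bases after a transcription start. The table held 13 such windows for 9 of the members. Capitals mark the letters searched on both strands: E-box CACGTG, its variant CACGTT, D-box TTATGTAA or TTACGTAA, and RORE core TAGGTCA or TGGGTCA. The stretches before the start are Per1 at chr11:69098699-69098948 on the plus strand, Cry1 at chr10:85185055-85185304, Nr1d1 at chr11:98775378-98775627 and Per3 at chr4:151044716-151044915, these last 3 on the minus strand. That of Per3 has 200 bases and leaves out the 50 nearest the start of its window, where another start of the gene lies. The stretch of Arntl at chr7:113207529-113207558 on the plus strand lies just after a start.
Per1: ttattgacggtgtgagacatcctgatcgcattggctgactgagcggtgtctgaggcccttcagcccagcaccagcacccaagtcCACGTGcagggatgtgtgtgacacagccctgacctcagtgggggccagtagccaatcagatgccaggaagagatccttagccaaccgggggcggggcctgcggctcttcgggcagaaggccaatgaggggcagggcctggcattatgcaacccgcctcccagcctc
Cry1: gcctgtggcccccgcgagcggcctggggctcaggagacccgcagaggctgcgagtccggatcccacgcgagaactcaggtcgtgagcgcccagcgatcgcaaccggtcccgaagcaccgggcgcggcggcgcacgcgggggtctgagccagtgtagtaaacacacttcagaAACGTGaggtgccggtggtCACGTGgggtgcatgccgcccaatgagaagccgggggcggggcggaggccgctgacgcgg
Nr1d1: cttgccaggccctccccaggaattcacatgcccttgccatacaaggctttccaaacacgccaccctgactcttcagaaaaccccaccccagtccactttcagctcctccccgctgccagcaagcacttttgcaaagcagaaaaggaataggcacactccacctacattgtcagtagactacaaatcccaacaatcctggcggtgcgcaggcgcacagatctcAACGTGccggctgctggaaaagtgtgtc
Per3: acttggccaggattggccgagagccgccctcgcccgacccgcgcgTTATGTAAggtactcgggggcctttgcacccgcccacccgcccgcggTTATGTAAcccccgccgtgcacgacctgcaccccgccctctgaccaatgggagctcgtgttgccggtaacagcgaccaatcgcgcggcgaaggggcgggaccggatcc
Arntl: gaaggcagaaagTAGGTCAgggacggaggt

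The E-box of Per1 began 166 bases before the start and that of Cry1 60 bases before it. The E-box variant lay on the opposite strand 79 bases before the start of Cry1, 28 bases before that of Nr1d1 and 166 bases before that of Cry2. Per3 held the same D-box in 2 places, 205 and 158 bases before the transcription start of its window. Arntl held the RORE core 31 bases after one of its starts. Over the 13 member windows the E-box was found in 2, its variant in 3, the D-box in 1 and the RORE core in 1. Among all 32851 promoter windows of the table these shares were 7.15%, 4.68%, 1.06% and 6.45%. The cyclic AMP response element TGACGTCA was in 0 member windows and in 1.79% of all windows. A match describes letters in this window and no binding site, and a window without a match says nothing about the factor.

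Depth was even, at 18226448 to 18606573 expected counts per library. The cortical excitatory neuron markers summed to between 2068 and 2664 CPM (counts scaled by library size) in every library, with 0 of the 7 markers missing. Their sum was lowest in control 2 (2068 CPM) and isolated 3 (2115 CPM), against 2494 to 2664 CPM in the other libraries. The sum of 9 markers of striatal projection neurons, a cell type of the neighbouring striatum, was 3249 CPM in control 2 and 2335 CPM in isolated 3, against 305 to 1004 CPM in the other 4 libraries. Without these 2 libraries the largest member difference, that of Per1, was -0.56 in place of -0.50, and 9 of 10 members again had a lower mean. Of the striatal markers 9 of 9 had a lower mean in isolated libraries (median log2 difference -0.46), with overlapping sums. Of the cortical neuron markers 2 of 7 had a lower mean (median 0.07), again with overlapping sums. Markers of 3 other cell types were lower in isolated libraries by about as much as the clock genes below. The summed markers of astrocytes were 3789 to 4060 CPM in control and 3513 to 3692 CPM in isolated libraries, those of microglia 244 to 261 and 228 to 240 CPM, and those of vascular cells 297 to 328 and 268 to 291 CPM. In each of these lists 6 of 6 genes had a lower mean, where 50.8% of all genes were lower. Median log2 differences were -0.08, -0.10 and -0.15, and 0 genes passed the adjusted threshold of edgeR. The sums of the groups did not overlap. Among single genes 4.73% were lower without overlap, and the share for sums of 6 genes was not computed. Oligodendrocyte markers were higher in 8 of 8 genes (median 0.44), at 2750 to 4598 and 3577 to 6568 CPM with overlapping groups. The part of these cell types in the levels of the clock genes was not tested. Fewer cells of a type and less RNA per cell cannot be told apart in such bulk tissue.

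Per unit of gene length the members spanned an order from Nr1d1 to Cry1. The authors' deposited FPKM values, which allow genes to be compared, were highest for Nr1d1 (75 ± 11.9 in control and 63.4 ± 3.95 in isolated libraries, SD, n = 3) and Dbp (64.6 ± 7.28 and 59.6 ± 6.56 FPKM). Cry2 followed at 47.2 ± 3.06 and 44.3 ± 0.602 FPKM, Per1 at 43.6 ± 15 and 30.9 ± 2.7 FPKM and Nr1d2 at 30.9 ± 1.11 and 30.4 ± 0.514 FPKM. Lower down stood Per2 (13.6 ± 2.12 and 12.6 ± 1.35 FPKM), Per3 (11.1 ± 1.18 and 12.2 ± 0.195 FPKM), Arntl (12.3 ± 0.663 and 10.8 ± 0.54 FPKM) and Clock (11.2 ± 0.194 and 10.4 ± 0.885 FPKM). Cry1 was the scarcest, at 6.42 ± 0.889 and 5.99 ± 0.676 FPKM. Over the 6 libraries the values of neighbours in this order overlapped except at 3 steps: from Dbp to Cry2, from Nr1d2 to Per2 and from Clock to Cry1.

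**Figure D1:**
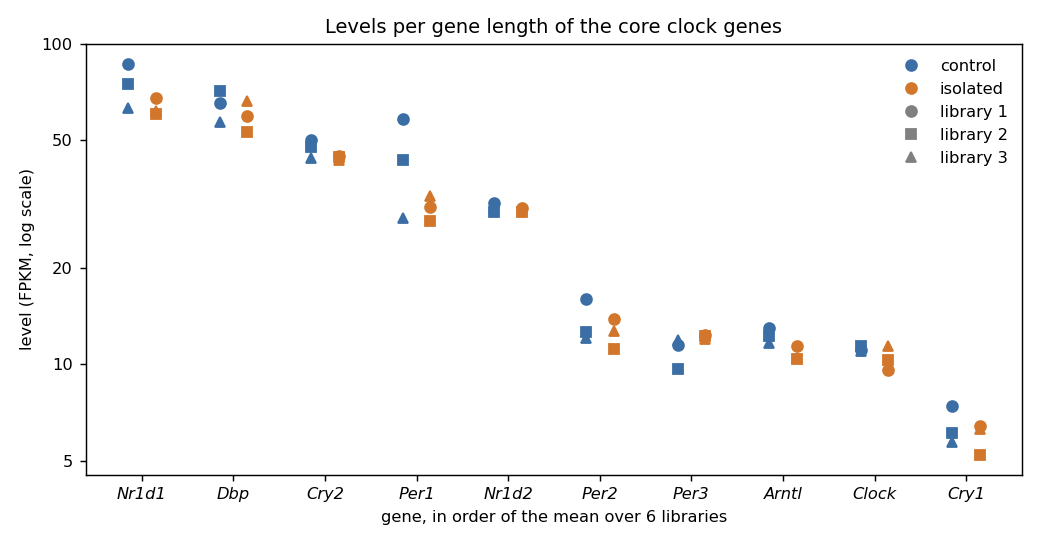
Deposited FPKM of each member in the 6 libraries, on a log scale, with genes in order of their mean. Colours show the group and symbols the library number. Nr1d1 and Dbp stand highest and Cry1 lowest, and Per1 is the member whose libraries lie farthest apart, from 28.1 to 58.5 FPKM.

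No member passed the threshold between isolated and control libraries, and nearly all differences were small and downward. In the fit over all 15169 genes by edgeR's quasi-likelihood test, 0 of 10 members had a p under 0.05 after Benjamini-Hochberg adjustment, as for all genes (0% called). At an unadjusted p under 0.05 stood 1 of 10 members, Arntl, against 3.53% of all genes, or 2% counting only genes that were lower. DESeq2 called 0 members and 0.00659% of all genes (1 gene, Fkbp5), with 1 member, Nr1d1, and 2.02% of all genes at an unadjusted p under 0.05. For limma-voom these were 0 members and 0% of genes, and 1 member, Arntl, and 3.53% of genes. The mean of 9 of 10 members was lower in isolated libraries, where 50.8% of all genes were lower, and the median log2 difference was -0.11 for the members and 0 for all genes. Groups did not overlap for 1 of 10 members, against 8.85% of all genes, or 4.73% counting only genes that were lower. Levels from here on are TMM-normalized CPM, which set 1 gene against itself across libraries, and differences are log2 of isolated over control.

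**Figure D2:**
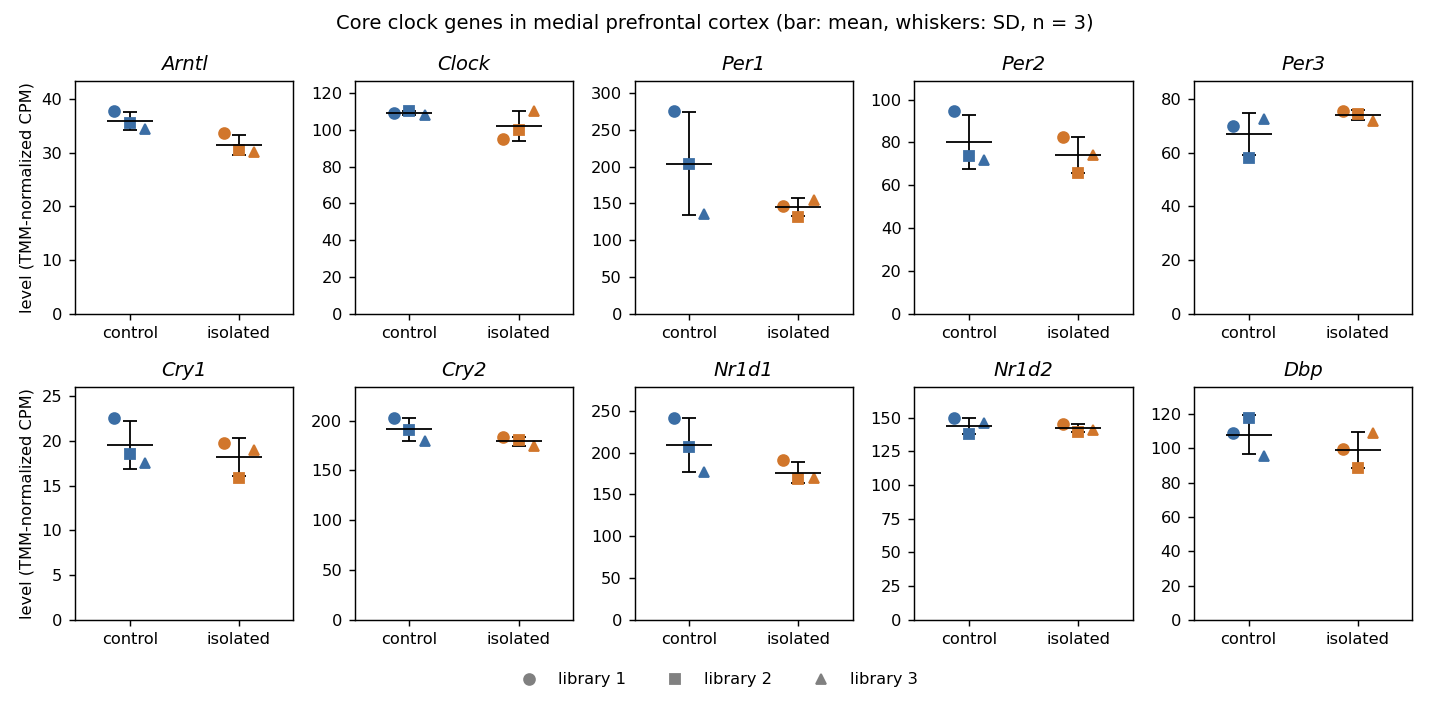
Level of each member in TMM-normalized CPM (vertical axis, from 0) in 3 control and 3 isolated libraries. Symbols are libraries, horizontal bars the group mean and whiskers the SD. The groups are apart for Arntl, while Per1 in the control libraries spreads from 135 to 275 CPM.

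In the activator arm, Arntl encodes the partner that the clock cannot run without. It was measured at 37.7, 35.6 and 34.5 CPM in control 1 to 3 and at 33.6, 30.5 and 30.2 CPM in isolated 1 to 3. Each isolated library lay below each control library, so the groups were apart, though isolated 1 and control 3 were close. The log2 difference was -0.19 (SE 0.07, 95% interval -0.36 to -0.03, edgeR unadjusted p = 0.029, adjusted p = 0.999). An exact permutation test of 3 against 3 libraries cannot give a two-sided p under 0.1. Without control 1 the difference of Arntl was -0.16, and without isolated 2 or isolated 3 it was -0.17. In these 3 settings its unadjusted p by edgeR was 0.083, 0.094 and 0.087, and with all 6 libraries it was 0.062 by DESeq2. Without isolated 1 the difference was -0.24.

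Clock, the other partner and a histone acetyltransferase, stood at 109, 110 and 108 CPM in control 1 to 3 and at 94.8, 100 and 110 CPM in isolated 1 to 3. The control libraries lay within a narrow band, and isolated 3 was in that band while isolated 1 and isolated 2 were below it. Its log2 difference was -0.10 (SE 0.06, edgeR adjusted p = 0.999). It was -0.17 without isolated 3 and -0.05 without isolated 1.

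Per1 had the largest difference among the members and also the largest spread. This repressor of the ARNTL and CLOCK pair is also an immediate early gene, switched on by neuronal activity and by glucocorticoids. Per1 was measured at 275, 203 and 135 CPM in control 1 to 3 and at 147, 132 and 155 CPM in isolated 1 to 3. Control 1 and control 2 were above all isolated libraries, whereas control 3 lay among them. The log2 difference was -0.50 (SE 0.22, 95% interval -1.02 to 0.03, edgeR unadjusted p = 0.059, adjusted p = 0.999). Without control 1 it was -0.22, and without control 3 it was -0.72 (edgeR adjusted p = 0.681).

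The summed level of 14 other immediate early genes, among them Fos, Egr1 and Arc, ran in nearly the same order of libraries as Per1. It was 1883, 1142 and 871 CPM in control 1 to 3 and 1067, 866 and 981 CPM in isolated 1 to 3. Control 1 was highest on both, and control 3 and isolated 2 had the lowest values on both. In this list 13 of 14 genes had a lower mean in isolated libraries, with a median log2 difference of -0.50, and 0 passed the adjusted threshold of edgeR (3 of 14 at an unadjusted p under 0.05, against 3.53% of all genes). The 12 genes of a glucocorticoid-induced list went the other way, with 11 higher in isolated libraries and a median of 0.14. By edgeR 0 passed the adjusted threshold and 5 of 12 had an unadjusted p under 0.05, against the same 3.53%. Fkbp5, the 1 gene that DESeq2 called, is in this list. The part of these lists in the level of Per1 was not tested.

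The other Per genes differed less, and not in 1 direction. Per2, a repressor whose loss disturbs the rhythm, stood at 94.5, 73.8 and 71.9 CPM in control 1 to 3 and at 82.4, 65.7 and 73.9 CPM in isolated 1 to 3. Its groups overlapped, with control 1 highest, and its log2 difference of -0.11 (SE 0.12) was 0.02 without control 1, -0.03 without isolated 2 and -0.20 without isolated 1. Per3, which is less needed for the rhythm than its relatives, was the only member with a higher mean in isolated libraries. It stood at 69.9, 58.2 and 72.7 CPM in control 1 to 3 and at 75.4, 74.3 and 71.8 CPM in isolated 1 to 3. Control 2 lay well below the other 5 libraries, and control 3 was above isolated 3. The log2 difference of Per3 was 0.14 (SE 0.09, edgeR adjusted p = 0.999), and it was 0.05 without control 2 and 0.21 without control 3.

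The cryptochromes are the main repressors of the ARNTL and CLOCK pair. Cry1 stood at 22.6, 18.5 and 17.5 CPM in control 1 to 3 and at 19.8, 15.8 and 19 CPM in isolated 1 to 3, with overlapping groups. Its log2 difference was -0.10 (SE 0.12), and it was 0.01 without control 1, -0.01 without isolated 2 and -0.18 without control 3. Cry2 stood at 203, 190 and 179 CPM in control 1 to 3 and at 183, 180 and 174 CPM in isolated 1 to 3. Control 1 and control 2 were above all isolated libraries and control 3 was within their range, for a log2 difference of -0.09 (SE 0.06), and it was -0.05 without control 1 and -0.14 without control 3.

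Nr1d1 encodes REV-ERB alpha, the repressor of Arntl, and was the second most different member after Per1. It stood at 242, 207 and 177 CPM in control 1 to 3 and at 191, 168 and 170 CPM in isolated 1 to 3. Isolated 1 was above control 3, so the groups overlapped. The log2 difference was -0.24 (SE 0.11, 95% interval -0.51 to 0.02, edgeR unadjusted p = 0.065, adjusted p = 0.999). It was -0.12 without control 1 and -0.35 without control 3. Nr1d2, its relative REV-ERB beta, was the steadiest member, at 150, 138 and 146 CPM in control 1 to 3 and at 145, 139 and 141 CPM in isolated 1 to 3, and its log2 difference was -0.03 (95% interval -0.15 to 0.09).

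Dbp, a transcription factor that carries the rhythm to output genes, stood at 109, 118 and 95.7 CPM in control 1 to 3 and at 99.7, 88.5 and 109 CPM in isolated 1 to 3. The groups overlapped, with isolated 3 level with control 1. Its log2 difference was -0.12 (SE 0.10, 95% interval -0.35 to 0.12). It was -0.04 without control 2 or without isolated 2, and -0.19 without control 3 or without isolated 3. Exons of Sphk2 on the opposite strand cover 18% of the exon bases of Dbp, and exons of Thra 8.55% of those of Nr1d1. For Cry2 this share was 4.67% and for Arntl 0.439%. The sources used here do not say whether reads were counted by strand, so part of these reads could belong to the neighbours.

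The spread over the libraries was wide for Per1 and narrow for Nr1d2. Over the 6 libraries the highest value of Per1 was 2.09 times the lowest, followed by 1.44 for Nr1d1 and for Per2, 1.43 for Cry1 and 1.33 for Dbp. Nr1d2 had the lowest ratio, 1.09. For the 8022 genes at or above the mean level of the scarcest member, 18.9 CPM, the median ratio was 1.17 and the upper quartile 1.26, which 6 of 10 members exceeded, while 3 of 10 lay below the median. That set has no upper limit on level, so it also holds genes far more abundant than the members. Control 1 was the highest library for 7 of 10 members, against 17.3% of all genes. Isolated 2 was the lowest library for 5 of 10, against 12% of all genes.

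The 2 arms were then set side by side, because a later or earlier clock could move Arntl and the genes it is out of phase with in opposite directions. Opposite peak times were stated above only for Arntl against Nr1d1 and Dbp. A mean over a whole arm is therefore a description of levels and no measure of phase. Both arms had a lower mean in isolated libraries. The mean log2 CPM of the activator arm was 6.01, 5.97 and 5.94 in control 1 to 3 and 5.82, 5.79 and 5.86 in isolated 1 to 3, a difference of -0.15. All isolated libraries were below all control libraries, as they were for Arntl alone, while the groups of Clock overlapped. Among single genes 4.73% were lower without overlap, and the share for means of 2 genes was not computed. The mean log2 CPM of the repressor and output arm was 6.86, 6.65 and 6.54 in control 1 to 3 and 6.63, 6.47 and 6.59 in isolated 1 to 3, a difference of -0.12 with overlapping groups. Without control 1 this second difference was -0.03, and that of the activator arm was -0.13.

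The activator arm minus the repressor and output arm was -0.71 ± 0.13 in control and -0.74 ± 0.06 in isolated libraries (log2, SD, n = 3). These means differed by -0.03, which is less than the pooled SD of 0.10 between libraries of a group. Leaving out 1 library at a time gave values from -0.10 (without control 1) to 0.03 (without control 3). The arms are scores over chosen genes, so no p is given for them. With 1 sampling per library and no hour of sampling in the labels, a shift of phase and a change of level cannot be told apart.

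**Figure D3:**
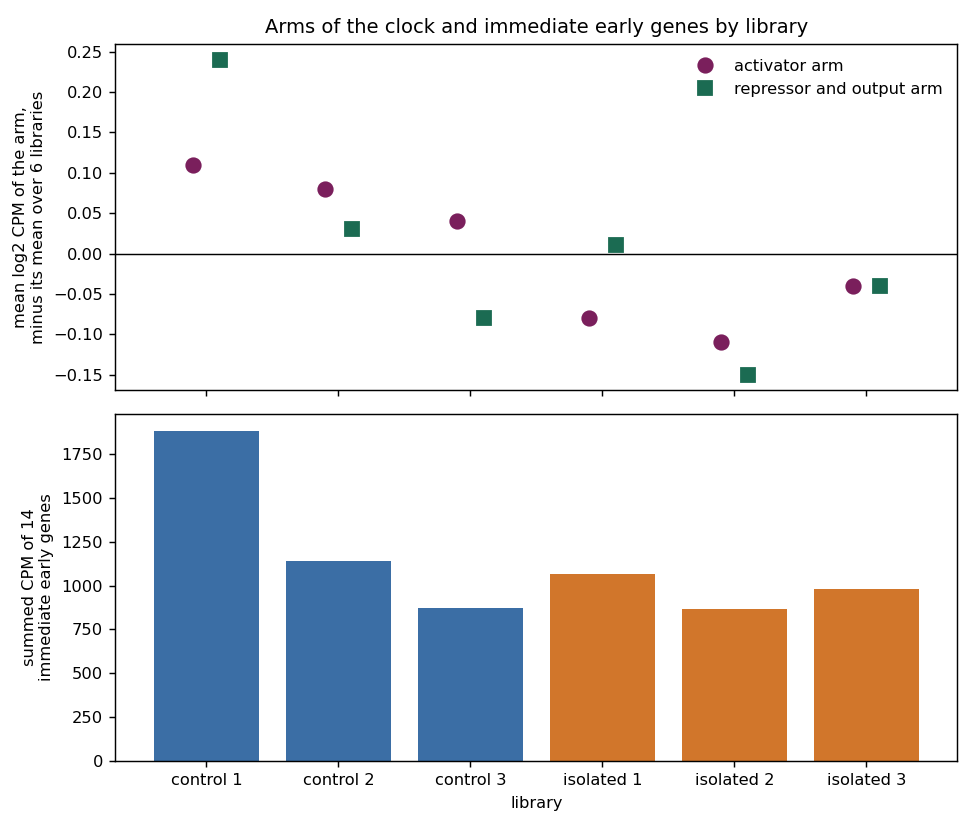
Top: mean log2 CPM of each arm in each library, minus its mean over the 6 libraries. Bottom: summed CPM of 14 immediate early genes, Per1 left out, in control (blue) and isolated (orange) libraries. Control 1 is highest for both arms and for the immediate early genes. The groups are apart for the activator arm, in which those of Arntl are apart and those of Clock overlap, and they overlap for the other arm.

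Ratios within a library between Arntl and each of the 8 genes of the other arm went in both directions. The log2 ratio of Arntl to Nr1d1 was -2.68, -2.54 and -2.36 in control 1 to 3 and -2.50, -2.46 and -2.49 in isolated 1 to 3. The control libraries lay on both sides of the isolated ones, and the means differed by 0.04. The ratio to Per1 was also higher on average in isolated libraries, by 0.25, with overlapping groups. The other 6 ratios were lower: Per3 by -0.34, Nr1d2 by -0.17, Cry2 by -0.10, Cry1 by -0.09, Per2 by -0.08 and Dbp by -0.08. The groups were apart for 3 of the 8 ratios (Per3, Nr1d2 and Cry2). They were apart for Arntl alone as well, and the share of ratios over all genes that are apart was not computed. The count is therefore only a description. These ratios share Arntl and are not independent of each other.

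Of 22 partner genes of the loop, all passed the filter and 0 passed the adjusted threshold of edgeR, with 14 lower and 8 higher in isolated libraries and a median log2 difference of -0.04. At an unadjusted p under 0.05 stood 1, Rorb, against 3.53% of all genes. Groups did not overlap for 3 of the 22 (Rorb and Fbxl21 lower, Wee1 higher), against 8.85% of all genes.

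**Figure D4:**
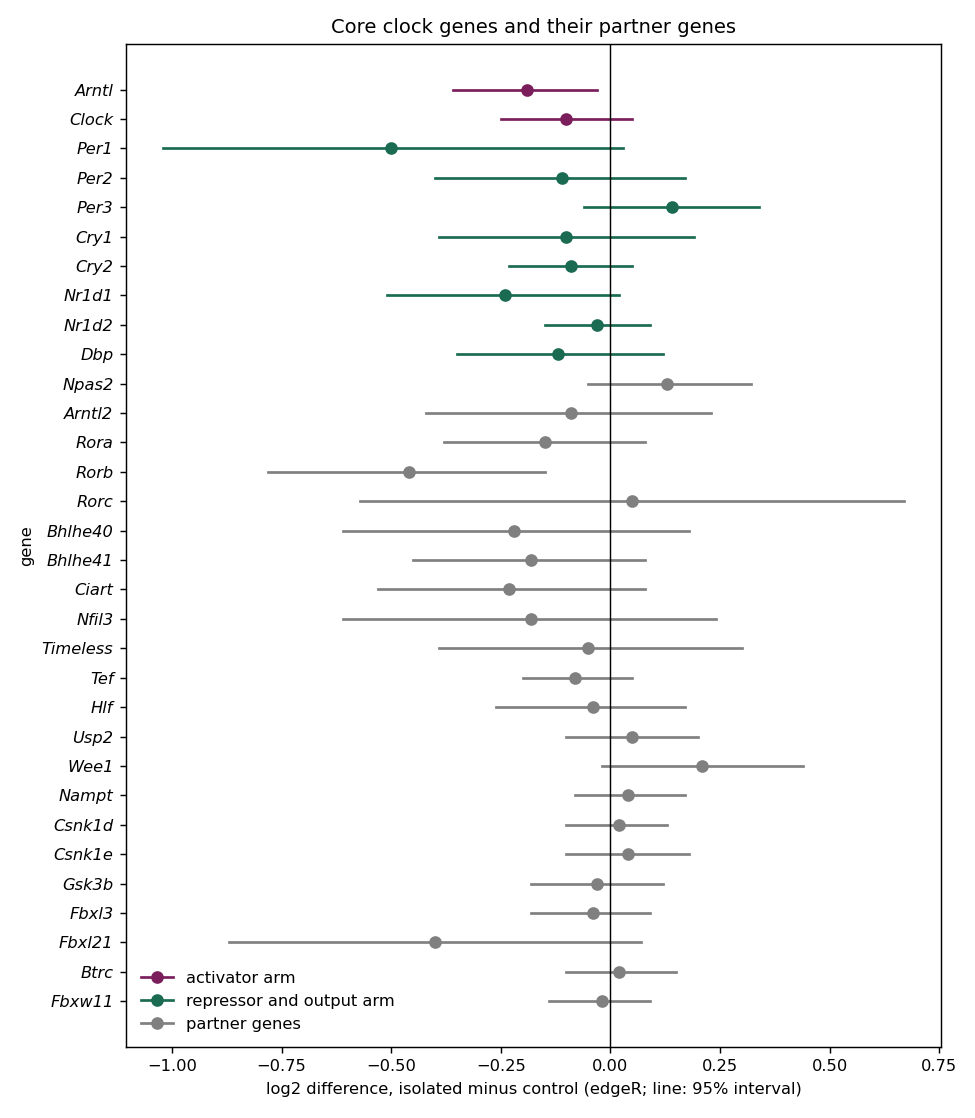
Log2 difference of isolated minus control (dot) with its 95% interval (line) from edgeR for the 10 members and 22 partner genes. Intervals lie to the left of 0 for Arntl and Rorb and cover 0 for the others.

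Among activator paralogs and ROR receptors, 3 of 5 were lower. Rorb, which also marks neurons of a middle cortical layer, stood at 61.5, 46 and 56.3 CPM in control 1 to 3 and at 44.2, 41.3 and 33.4 CPM in isolated 1 to 3, with the groups apart. Its log2 difference was -0.46 (SE 0.14, edgeR unadjusted p = 0.01, adjusted p = 0.999). Over the 14 alternatives of the fit this difference ran from -0.57 to -0.35. The lowest value of Rorb in each group was in control 2 and isolated 3, the libraries with the highest striatal marker sums. Without both libraries its difference was again -0.46. Rora, which encodes another activator of Arntl, had a difference of -0.15 (SE 0.10), which was -0.07 without isolated 2 and -0.26 without isolated 1. Npas2, which can stand in for Clock in the forebrain, went the other way, with a mean of 57.3 ± 4.04 CPM in the control group against 62.9 ± 4.68 CPM in the isolated group (SD, n = 3). Its difference was 0.13 (SE 0.08), and it was 0.08 without control 1 or without isolated 3 and 0.19 without isolated 2.

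The 5 feedback repressors all had a lower mean in isolated libraries, where 50.8% of all genes were lower. Their median log2 difference was -0.18, with 0 at an unadjusted p under 0.05 by edgeR. The smallest difference in size was that of Timeless, -0.05 (SE 0.15). Ciart, a repressor of the ARNTL and CLOCK pair, stood at 29.7, 21.4 and 22.3 CPM in control 1 to 3 and at 20.4, 20.1 and 22.2 CPM in isolated 1 to 3. Control 1 was apart from the other 5 libraries, and the difference of -0.23 (SE 0.13) was -0.06 without it. Without control 2 the difference of Ciart was -0.31. The E-box repressors Bhlhe40 and Bhlhe41 differed by -0.22 (SE 0.17) and -0.18 (SE 0.11), and the D-box repressor Nfil3 by -0.18 (SE 0.18). Without control 1 these 3 differences were -0.07, -0.08 and -0.02. That of Bhlhe40 was also -0.07 without isolated 3 and was -0.36 without isolated 1, and without control 3 those of Bhlhe41 and Nfil3 were -0.29 and -0.35. The summed immediate early genes were highest in control 1 as well, and their part in these levels was not tested. Exons of Gm43909 on the opposite strand cover 19% of the exon bases of Bhlhe41, so part of its reads could belong to that neighbour.

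The output list was split, with 2 of 5 lower. Tef and Hlf, the relatives of Dbp, had means of 494 ± 21.7 and 363 ± 43.2 CPM in the control group against 469 ± 2.35 and 353 ± 20.8 CPM in the isolated group (SD, n = 3), for log2 differences of -0.08 and -0.04. Wee1, a cell cycle kinase gene with E-boxes in its promoter, was at 27.8, 23.5 and 28.4 CPM in control 1 to 3 and 33.4, 30.5 and 28.4 CPM in isolated 1 to 3. Isolated 3 lay barely above control 3, and its difference was 0.21 (SE 0.10, edgeR unadjusted p = 0.064, adjusted p = 0.999). It was 0.13 without control 2 and 0.27 without isolated 3. Of the kinases and ubiquitin ligases that set the lifetime of PER and CRY proteins, 4 of 7 were lower, with a median of -0.02. Csnk1d, a PER kinase, had a log2 difference of 0.02 (95% interval -0.10 to 0.13), and the scarce ligase gene Fbxl21 one of -0.40 (95% interval -0.87 to 0.07). That of Fbxl21 was -0.19 without control 2 and -0.52 without control 1. The mean of Fbxl21 was 4.45 ± 1.06 CPM in the control group against 3.36 ± 0.421 CPM in the isolated group (SD, n = 3).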

How the data were processed

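The authors deposited 1 table per library, and per the file headers each gives an expected count (estimated reads per gene, not normalized) and an FPKM value, the count scaled for gene length and library size. Per the submitters' processing notes HISAT, Bowtie2, RSEM and mm10 were used, without versions or settings. Another 6 columns of a table of the whole series match no sample label and were not used. A gene absent from a table counted as 0. Expected counts were rounded and fitted with edgeR 4.0.16 (R 4.3.3): filterByExpr (minimum count 10, minimum total 15), TMM factors from 0.991 to 1.01, quasi-likelihood F-test without covariates, and Benjamini-Hochberg adjustment over 15169 genes at 0.05. The fit was tested on simulated data. Where spreads were drawn gene by gene, false calls exceeded the nominal share, and no gene was called here. DESeq2 1.42.0, limma 3.58.1, FPKM scales, a replicate block and left-out libraries were alternatives. Members, lists, and alternatives were chosen with earlier results of these data known. All members are named, and partner genes with values were picked from their lists after values were seen. Exon overlaps are from GENCODE (GRCm38). Precision is limited by 3 libraries per group.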

Additional observations from a re-analysis of the deposited data

How the results depend on the processing

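Under 14 alternatives of the fit, 0 of 10 members and 0 of 22 partner genes were called at the adjusted threshold. Over all genes DESeq2 called 1 gene (Fkbp5, no member), and the other alternatives called 0. Of 308 gene-level values under these alternatives 3 changed direction, all without control 1: the log2 difference of Per2 became 0.02, that of Cry1 0.01 and that of Hlf 0.05. Leaving out 1 library at a time gave -0.20 to 0.02 for Per2, -0.18 to 0.01 for Cry1 and -0.12 to 0.05 for Hlf. Members with a lower mean numbered 7 of 10 without control 1 and 9 of 10 under each other alternative. Unadjusted p ranged from 0.018 to 0.094 for Arntl and from 0.0014 to 0.24 for Per1, and adjusted p from 0.883 to 1 and from 0.681 to 1. Libraries that share a replicate number did not deviate together (r = 0.0254, -0.269 and -0.492 over genes), so the numbers were not taken as pairs. Deviations from the mean of 3 libraries are not independent of each other, so these values cannot exclude pairing. With the replicate block 0 genes were called, 331 in place of 535 had an unadjusted p under 0.05, and the difference between the arms was -0.03. In the 150 bases nearest the start the E-box was in 1 member window in place of 2 and the D-box in 0 in place of 1, because those matches lie farther out.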
